A study of Mus musculus with 6 samples.

Results

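Marker genes of heart macrophages, 10 in all, were followed in 6 mouse hearts of the C57BL/6 background, 3 wild type and 3 with Arrdc4 knocked out by CRISPR-Cas9. The 10 genes were taken by symbol from the 49315 gene rows of the count table. Csf1r, Cd68, Adgre1, C1qa and Cx3cr1 mark macrophages in general, Lyve1, Timd4, Cd163 and Mrc1 mark resident macrophages, and Ccr2 marks cells recruited from blood monocytes. Each heart gave 1 RNA-seq library, and age, sex and the exons removed are not given in the labels used here. Whether hearts of 1 genotype came from separate litters is also not given, so p-values measure only the spread between these hearts. Heart muscle markers summed to 44910 to 56790 CPM in each library, so the labelled tissue's defining transcripts were present. The design asks which transcripts differ when Arrdc4, an alpha-arrestin adaptor of NEDD4-type ubiquitin ligases, is lost.

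The heart holds macrophages of more than 1 origin. Resident cells seeded before birth maintain themselves locally, carry TIMD4, LYVE1 and scavenger receptors, and take up dying cell material, whereas CCR2-bearing cells derive from circulating monocytes drawn in by CCL2 and related chemokines. Both kinds depend on signalling through CSF1R. In RNA from whole tissue, fewer cells of a type and less RNA per cell cannot be told apart.

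Library totals ran from 29974501 to 41036626 counts. Arrdc4 had a level of 8.18 to 11.04 CPM (a gene's share of the library's counts after TMM scaling) in wild-type hearts and 0.0345 to 0.117 CPM in knockout hearts, and it was the 1 gene of 14508 tested that passed an adjusted p of 0.05 (edgeR quasi-likelihood test, adjusted p = 0.00226). Wild-type replicate 3 and knockout replicate 2 stood apart from the other hearts. Relative to each gene's mean over the hearts, the median log2 level of genes with at least 9700 exon bases was -0.26 and -0.24 there. That of genes with the shortest exons (at most 1481 bases) was 0.36 in both, against -0.22 to -0.057 in the other 4 hearts. Reads of 4 Y-linked genes summed to 146 to 158 CPM in wild-type replicates 1 and 2 and knockout replicate 1, and to 1.19 to 2.24 CPM in the other 3 hearts.

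None of the 10 macrophage markers passed the test between genotypes. All 10 were detected in every heart and all 10 passed the filter on low counts. The background was 0.00689% of genes called at the adjusted threshold in either direction. In the markers 9 of 10 had a positive log2 fold change of knockout over wild type, against 52.3% of all tested genes, with a median over the 10 of 0.16 (0.0092 over all tested genes). That count rested on knockout replicate 1, in which 8 of the 10 genes reached their highest value. Of all 14508 tested genes, 3139 were highest in that heart. Without that heart 1 of 10 markers, Ccr2, had a positive fold change and the median was -0.28. No marker had 3 knockout values that all lay above, or all below, the 3 wild-type values, where 4.07% of all tested genes did (2.18% higher and 1.90% lower in knockout). A 2-fold difference in both directions lay outside the 95% interval for 3 markers, C1qa, Lyve1 and Timd4, against 76.3% of all tested genes.

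**Figure D1:**
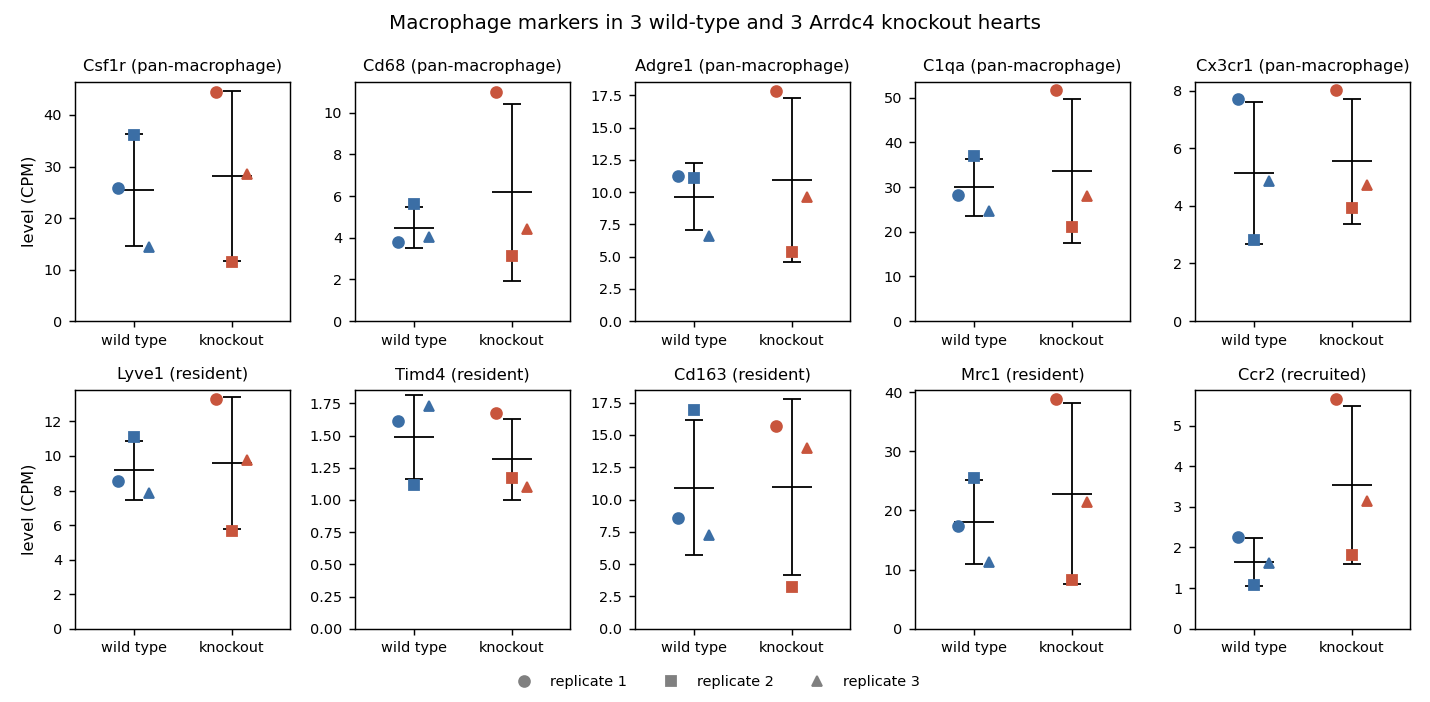
Level of each macrophage marker in CPM (vertical axes, each starting at 0) in wild-type (blue) and Arrdc4 knockout (red) hearts, with 1 symbol per replicate number and black bars for the mean and SD of 3 hearts. The 2 genotypes overlap in all 10 panels, and knockout replicate 1 (red circle) is the highest heart in 8 of them.

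The pan-macrophage genes spread more within a genotype than between genotypes. Csf1r (ENSMUSG00000024621, GRCm38 chromosome 18, 61100598 to 61132149, plus strand) encodes the receptor for the growth factors CSF1 and IL34. Its level was 25.9, 36.0 and 14.3 CPM in wild-type replicates 1 to 3 and 44.4, 11.4 and 28.6 CPM in knockout replicates 1 to 3. The highest and the lowest heart were thus both knockouts, and the wild-type values lay between them. Its log2 fold change was 0.15 (SE 0.50, 95% interval -1.03 to 1.33, adjusted p = 1, edgeR). Its exons overlap those of Hmgxb3 on the opposite strand, and since the strand setting of the counting is not given, some of its reads may belong to that gene.

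C1qa (ENSMUSG00000036887, chromosome 4, 136895917 to 136898803, minus strand) encodes a chain of the complement protein C1q, which macrophages make. It stood at 28.3, 37.1 and 24.6 CPM in wild-type hearts and at 51.8, 21.1 and 28.0 CPM in knockout hearts. Knockout replicate 1 was again the highest and knockout replicate 2 the lowest. The log2 fold change was 0.16 (SE 0.34), and its 95% interval, -0.62 to 0.95, left out a 2-fold difference in either direction.

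Adgre1 (ENSMUSG00000004730, chromosome 17, 57358691 to 57483527, plus strand) encodes the surface protein F4/80, and its values were 11.2, 11.1 and 6.63 CPM in wild type against 17.8, 5.34 and 9.58 CPM in knockout. The lysosomal glycoprotein gene Cd68 (ENSMUSG00000018774, chromosome 11, 69664213 to 69666153, minus strand) stood at 3.80, 5.62 and 4.06 CPM in wild type and at 11.01, 3.10 and 4.43 CPM in knockout. Both genes had the same highest and lowest hearts as Csf1r and C1qa. Their log2 fold changes were 0.18 (SE 0.43) for Adgre1 and 0.47 (SE 0.46) for Cd68.

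Cx3cr1, the receptor for fractalkine, had another order of hearts. Its values (ENSMUSG00000052336, chromosome 9, 119901616 to 120069879, minus strand) were 7.72, 2.82 and 4.87 CPM in wild type and 8.02, 3.93 and 4.71 CPM in knockout. The lowest heart was wild-type replicate 2, which was the second highest for Csf1r and C1qa, so that the level of Cx3cr1 per unit length was 10.04% of that of Csf1r in that heart and 21.1% to 44.3% in the other 5. The log2 fold change was 0.12 (SE 0.41). Its exons overlap those of Gm33858, an antisense gene.

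Among the resident markers, Timd4 was the steadiest and Cd163 the most variable. Timd4 (ENSMUSG00000055546, chromosome 11, 46810800 to 46844332, plus strand) encodes a receptor for phosphatidylserine on dying cells. It gave 1.61, 1.12 and 1.73 CPM in wild-type hearts and 1.68, 1.17 and 1.10 CPM in knockout hearts, from 34 to 72 counts per library. The highest heart was 1.57 times the lowest, the narrowest range of the 10 markers, and the log2 fold change was -0.17 (SE 0.29, 95% interval -0.84 to 0.51). It was the 1 marker with a negative value.

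Cd163, the scavenger receptor for haemoglobin bound to haptoglobin (ENSMUSG00000008845, chromosome 6, 124304656 to 124330527, plus strand), ranged 5.28-fold over the hearts. It stood at 8.61, 16.9 and 7.28 CPM in wild type and at 15.7, 3.21 and 14.0 CPM in knockout. The genotype means were 10.9 ± 5.22 CPM and 10.97 ± 6.78 CPM (SD, n = 3 each) and the log2 fold change was 0.0087 (SE 0.57). The interval, -1.33 to 1.35, held a 2-fold difference in both directions.

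The mannose receptor gene Mrc1 (ENSMUSG00000026712, chromosome 2, 14229392 to 14332057, plus strand) gave 17.4, 25.5 and 11.3 CPM in wild type and 38.8, 8.30 and 21.4 CPM in knockout. Its order of hearts matched that of Csf1r, and its log2 fold change was 0.34 (SE 0.53). Lyve1 encodes a hyaluronan receptor that lymphatic endothelium also carries (ENSMUSG00000030787, chromosome 7, 110850607 to 110863239, minus strand). It stood at 8.54, 11.1 and 7.88 CPM in wild type and at 13.3, 5.65 and 9.79 CPM in knockout, with a log2 fold change of 0.067 (SE 0.31, 95% interval -0.66 to 0.79).

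Markers of lymphatic endothelium were read beside Lyve1. Of the 5 tested, 4 had positive fold changes and none was called. The summed level of the list was 77.2 to 107 CPM in wild type and 81.9 to 123 CPM in knockout. Prox1, which heart muscle also expresses, made up most of it, with 62.4 to 84.1 CPM in wild type and 69.2 to 88.5 CPM in knockout (log2 fold change -0.02, SE 0.18). Ccl21a had 0 counts in all hearts, which with 3 counts as the limit allows up to 0.0700 to 0.103 CPM per library (counting error only). It has near-identical gene copies, so reads left out for matching several of them could also give 0, and the limit does not bound its expression. The part of lymphatic cells in the Lyve1 values was not tested.

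Ccr2 had the largest fold change of the 10. The gene (ENSMUSG00000049103, chromosome 9, 124101950 to 124113557, plus strand) encodes the chemokine receptor that draws monocytes out of marrow and into tissue. It gave 2.25, 1.07 and 1.61 CPM in wild type and 5.64, 1.83 and 3.14 CPM in knockout, from 40 to 242 counts per library. Knockout replicates 1 and 3 lay above all wild-type hearts, and knockout replicate 2 lay below wild-type replicate 1 and above the other two. The means were 1.64 ± 0.591 and 3.54 ± 1.94 CPM (SD, n = 3 each). The log2 fold change was 1.12 (SE 0.45, 95% interval 0.060 to 2.19), with an unadjusted p of 0.041 and an adjusted p of 1 in edgeR. At an unadjusted p under 0.05, 1.23% of all tested genes were found (0.751% higher and 0.482% lower in knockout), and Ccr2 was the 1 marker among them.

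The sign for Ccr2 was positive under all 17 other ways of processing the data, from 0.61 without knockout replicate 1 to 1.43 without knockout replicate 2. Its unadjusted p ranged from 0.00584 to 0.17 and its smallest adjusted p was 0.613 (edgeR, without knockout replicate 2).

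**Figure D2:**
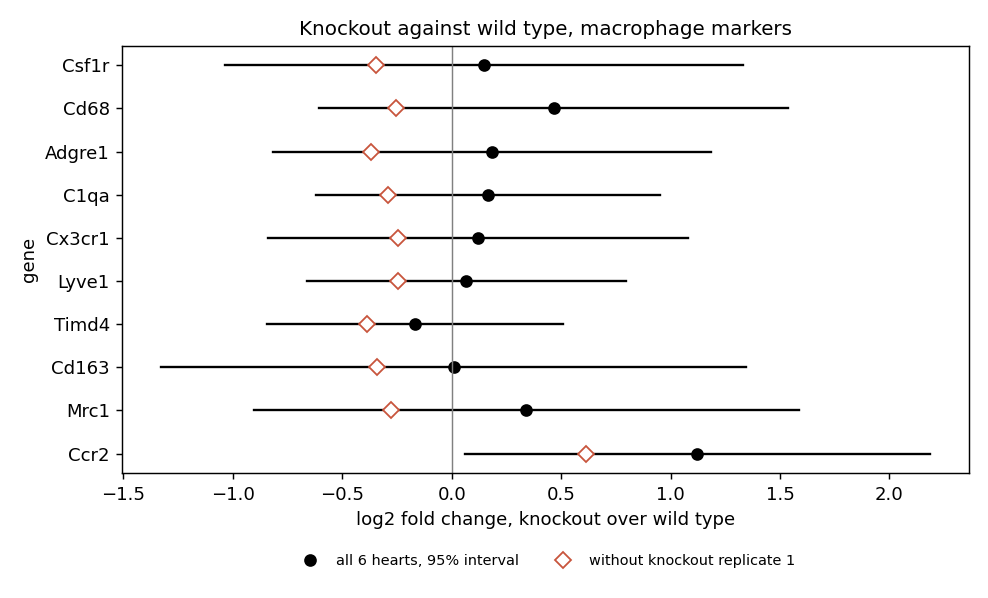
Log2 fold change of knockout over wild type for each marker (horizontal axis), as black points with 95% intervals from the edgeR fit on all 6 hearts, and as open diamonds from the fit without knockout replicate 1. Ccr2 is the 1 gene whose diamond (0.61) lies to the right of 0.

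Knockout replicates 1 and 2 differed in the whole set of markers at once. Averaged over the 10 genes, the log2 level relative to each gene's mean was 0.84 in knockout replicate 1 and -0.73 in knockout replicate 2. It was 0.04, 0.08 and -0.33 in wild-type replicates 1 to 3 and 0.10 in knockout replicate 3. The average of wild-type replicate 2 held opposite values, from 0.82 for Cd163 to -1.04 for Ccr2. Knockout replicate 2 was the lowest heart for 7 markers, wild-type replicate 2 for Ccr2 and Cx3cr1, and knockout replicate 3 for Timd4. Of all 14508 tested genes, 2958 were lowest in knockout replicate 2.

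**Figure D3:**
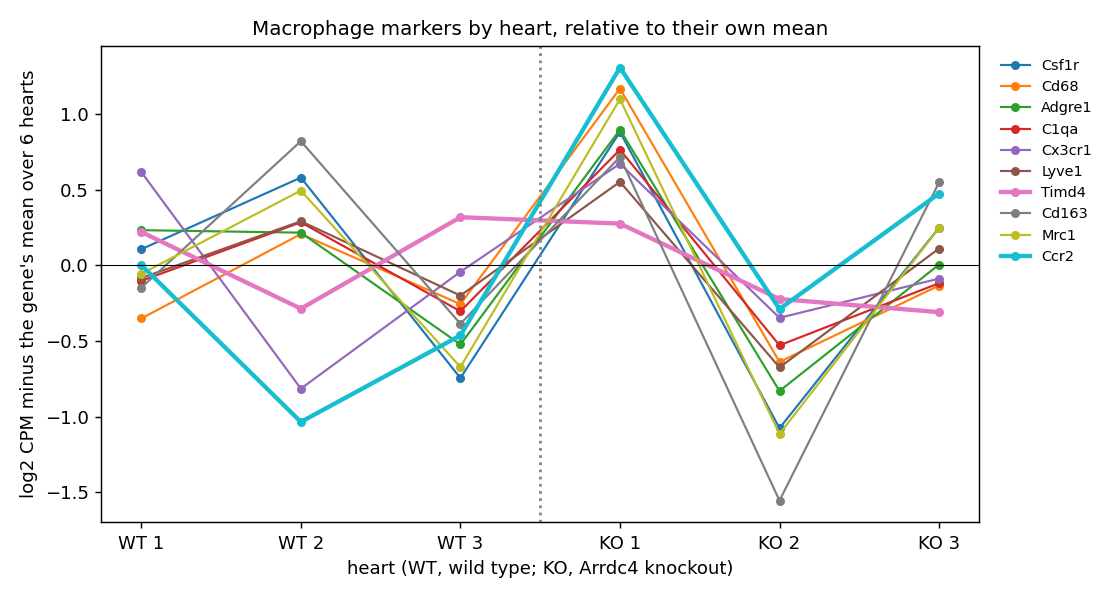
Log2 CPM of each marker minus that gene's mean over the 6 hearts (vertical axis) in each heart (horizontal axis); lines join the values of 1 gene and the hearts have no order within a genotype. Most lines peak in knockout replicate 1 and dip in knockout replicate 2, the thick line of Timd4 stays nearly flat, and the thick line of Ccr2 is lowest in wild-type replicate 2.

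The hearts with low values for long transcripts, knockout replicate 2 and wild-type replicate 3, were also low for most markers. The log2 ratio of their mean to that of the other 4 hearts was -1.39 for Csf1r and Mrc1 and -1.40 for Cd163, whose exons sum to 5461 to 6371 bases. It was -0.67 for C1qa (1040 bases), -0.80 for Cd68 (1257 bases) and 0.07 for Timd4 (2173 bases). Ccr2, the marker with the longest exons (6760 bases), was at -0.82. Over the 71 tested genes of the markers and the macrophage lists, the median ratio was -0.62 for the 35 longer than 2589 bases and -0.26 for the other 36. Over all tested genes it was -0.39 for those with at least 9700 bases and 0.53 for those with at most 1481 bases. The short markers C1qa and Cd68 were low in these hearts while short genes as a whole were high. Genes of the macrophage lists with at most 1481 bases went both ways, from -1.72 to 0.38. When the trend of level with exon length was taken out of each library, 8 of 10 markers had positive fold changes and Ccr2 stood at 1.02.

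**Figure D4:**
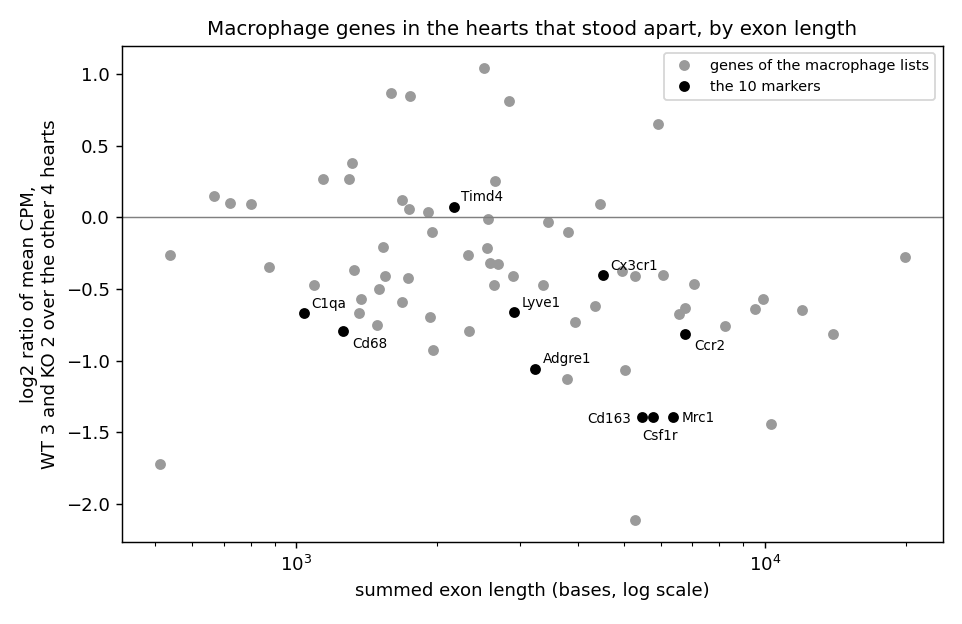
Log2 ratio of mean CPM in wild-type replicate 3 and knockout replicate 2 over that in the other 4 hearts (vertical axis) against summed exon length in bases (horizontal log axis), for the 10 markers (black) and the tested genes of the macrophage lists (grey). In all, 9 of the 10 markers lie below 0, with Csf1r, Mrc1 and Cd163 the lowest of them and Timd4 at 0.07.

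Within these splits of the hearts the genotypes compared differently. Between the 2 hearts that stood apart, 9 of 10 markers were lower in knockout replicate 2 than in wild-type replicate 3, with log2 ratios from -1.18 to 0.18 and Ccr2 at the upper end. Among the other 4 hearts all 10 were higher in knockout, from 0.02 for Timd4 to 1.41 for Ccr2. This too rested on knockout replicate 1: in knockout replicate 3 alone, 3 of 10 were higher than the mean of wild-type replicates 1 and 2 (Ccr2 at 0.92, Cd163 at 0.13 and Mrc1 at 0.0011) and 7 were lower, down to -0.31 for Timd4. Among hearts with Y-linked reads, all 10 were higher in knockout replicate 1 than in the mean of wild-type replicates 1 and 2 (0.30 to 1.77). Among hearts without them, 5 were higher and 5 lower in the mean of knockout replicates 2 and 3 than in wild-type replicate 3 (-0.61 to 0.62). Ccr2 was at the upper end of both ranges. Of the 4 splits, 3 leave a lone heart on at least 1 side. The edgeR fits without the hearts that stood apart and with a term for Y-linked reads called 0 markers.

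The ratio of Ccr2 to the summed resident markers, though not Ccr2 itself, was higher in each knockout heart than in any wild-type heart. In RPKM (CPM divided by exon length in kilobases), Ccr2 was 4.17%, 1.38% and 3.61% of the summed level of Lyve1, Timd4, Cd163 and Mrc1 in wild-type replicates 1 to 3. It was 5.84%, 6.19% and 4.75% in knockout replicates 1 to 3, and the groups did not overlap (3.05 ± 1.48% against 5.59 ± 0.751%, SD, n = 3 each). The highest ratio, in knockout replicate 2, came with the lowest resident sum of all hearts (4.365 RPKM). Ccr2 itself was 0.270 RPKM there, below the 0.332 RPKM of wild-type replicate 1. Of all 14508 tested genes set against the same sum, 1.28% did not overlap between groups and were higher in knockout. Relative to Csf1r, to Cd68 and to Cd163 taken singly, the groups overlapped. Against Csf1r the values were 7.41%, 2.53% and 9.61% in wild type and 10.9%, 13.7% and 9.38% in knockout. These ratios were taken after the counts had been seen and have no test.

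**Figure D5:**
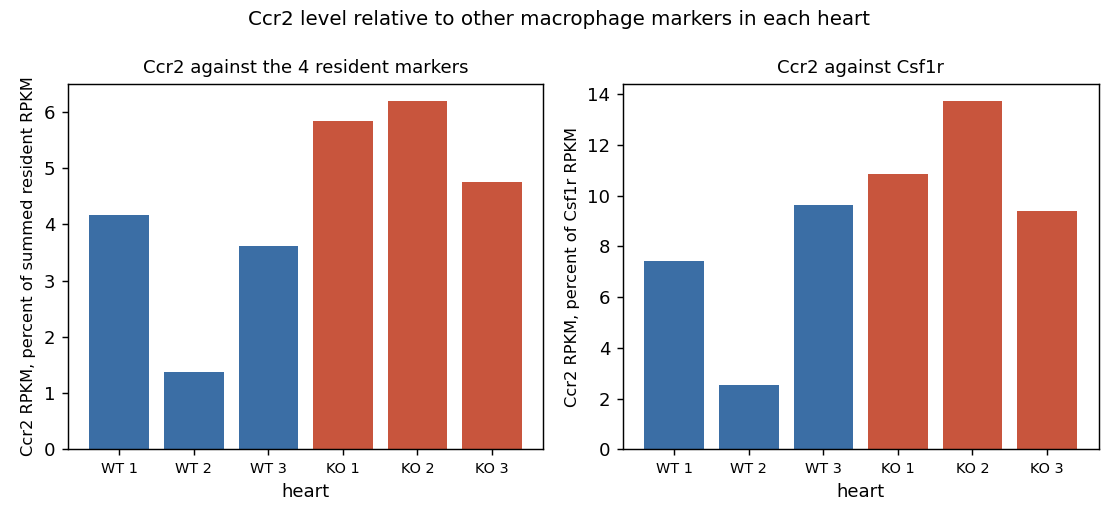
Ccr2 RPKM as a percent of the summed RPKM of 4 resident markers (left) and of Csf1r (right) in each heart, wild type in blue and knockout in red, with 1 bar per heart and no error bar. On the left the knockout bars (4.75% to 6.19%) all exceed the wild-type bars (1.38% to 4.17%). The tallest of them, knockout replicate 2, is the heart with the lowest resident sum (4.365 RPKM). On the right knockout replicate 3 (9.38%) falls below wild-type replicate 3 (9.61%).

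The markers also differed from each other in level. RPKM is relative to the library, and the order depends on the exon lengths used, from 1040 bases for C1qa to 6760 for Ccr2. Libraries that differed in their trend with exon length enter these means. Per unit length, C1qa led with 30.6 ± 10.7 RPKM (SD, n = 6 hearts of both genotypes), and its range did not touch that of any other marker. Csf1r (4.64 ± 2.18 RPKM), Cd68 (4.24 ± 2.31), Lyve1 (3.21 ± 0.913), Mrc1 (3.21 ± 1.72) and Adgre1 (3.18 ± 1.36) followed. The ranges of these 5 overlapped, and Cd68 exceeded Lyve1 in 6 of 6 hearts. Cd163 (2.01 ± 0.991 RPKM) and Cx3cr1 (1.19 ± 0.464) came next and kept that order in 4 of 6 hearts. Timd4 (0.645 ± 0.139 RPKM) and Ccr2 (0.383 ± 0.244) were the least abundant, in that order in 5 of 6 hearts, the exception being knockout replicate 1.

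The genes whose level moved most like a marker over the 6 hearts were sought among 11290 genes, of which 43 were in the macrophage lists. With so few listed, most of the closest genes would fall outside the lists in any case. For Csf1r they were the basement membrane collagens Col4a2 and Col4a1 and the scavenger receptor gene Stab1, with mean absolute differences of 0.073, 0.096 and 0.10 on the log2 scale among 11290 genes. For Lyve1 they were Tmppe, the RNA-sensing receptor gene Tlr7 and Dach1 (0.045, 0.059 and 0.060). For Ccr2 they were the kinase gene Dclk1, the myosin gene Myo1f and the transcription factor gene Mycn (0.26, 0.28 and 0.29). By this measure no gene followed Ccr2 as closely. The measure is not scaled to a marker's own range over the hearts, which was 5.30-fold for Ccr2, 3.91-fold for Csf1r and 2.36-fold for Lyve1. It therefore cannot show whether Ccr2 moved apart from other genes.

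The other macrophage genes, 61 of 70 listed that passed the filter, likewise gave no call, with 0 past the adjusted threshold in edgeR, 0 at an unadjusted p under 0.05 and 48 with positive fold changes (median 0.16). DESeq2 and limma-voom called 0 as well, and DESeq2 held 2 of 70 at an unadjusted p under 0.05. In 39 of the 61 the highest value came from knockout replicate 1, against 3139 of all 14508 tested genes. Without that heart 16 of 61 had positive fold changes. Of 17 core macrophage genes 16 were positive (median 0.17), with the protease gene Lgmn at 0.29 (SE 0.16) and the membrane protein gene Ms4a7 at 0.33 (SE 0.29). A 2-fold difference in either direction lay outside the 95% interval for 10 of the 17. Of 13 tested genes of resident macrophages 8 were positive and 5 negative (median 0.12), with the growth factor gene Igf1 at 0.30 (SE 0.30) and the carbonyl reductase gene Cbr2 at 0.22 (SE 0.30).

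Genes of monocytes and recruited macrophages had the largest median of these lists. Of 12 listed, 8 passed the filter. All 8 were positive (median 0.67, range 0.28 to 0.96), and none was called. Which cells of the whole heart these transcripts came from was not tested. The integrin gene Itgal stood at 0.59 (SE 0.31) and Thbs1, a matrix glycoprotein gene, at 0.75 (SE 0.41). Without knockout replicate 1 the median of the list was 0.40 with 7 of 8 positive, and Thbs1 stood at 0.18. The classical monocyte gene Ly6c2 stayed under the filter with 3 to 14 counts per library and so was not tested in the fit reported here. It also has near-identical relatives, which makes its counts uncertain. Plac8, another monocyte gene, was at 0.380, 0.293 and 0.507 CPM in wild type and at 0.816, 1.07 and 0.236 CPM in knockout. Knockout replicate 2, the lowest heart for most resident markers, was the highest for Plac8, and knockout replicate 3 was the lowest.

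Ligands of the marker receptors were measured in the same tissue. Csf1, the main growth factor of macrophages, stood at 34.7, 34.1 and 24.8 CPM in wild type and at 50.5, 35.0 and 39.8 CPM in knockout. The 3 knockout hearts lay above the 3 wild-type hearts, as for 2.18% of all tested genes, but the difference did not pass the test (log2 fold change 0.42, SE 0.20, adjusted p = 1, edgeR). Ccl2, the chief ligand of CCR2, was at 1.77, 0.852 and 2.69 CPM in wild type and at 6.65, 3.76 and 1.44 CPM in knockout, and the groups overlapped (1.17, SE 0.60). The Ccl2 value was 0.55 without knockout replicate 1, and it was 1.603 without wild-type replicate 3. Il34, the other CSF1R ligand, was at 0.22 (SE 0.37) and Cx3cl1, which encodes fractalkine, at 0.25 (SE 0.33). Of the 7 tested ligands 6 were positive, with a median of 0.42, or 5 of 7 with a median of 0.071 without knockout replicate 1.

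Macrophage transcription factors had a median near that of the 10 markers (0.16), and MHC class II genes had one closer to 0. Of 9 tested transcription factors 7 were positive (median 0.14), with Cebpb at 0.57 (SE 0.43) and Zeb2 at 0.15 (SE 0.17). Spi1, which encodes PU.1, the factor that sets the myeloid programme, stood at 3.30 to 4.49 CPM in wild type and 3.10 to 6.25 CPM in knockout. Of 7 MHC class II genes, which present antigen, 3 were positive and 4 negative (median -0.03), with H2-Aa at -0.18 (SE 0.25) and H2-DMb1 at 0.12 (SE 0.33), and a 2-fold difference lay outside the interval for all 7. H2-Aa was 20.3 CPM in wild-type replicate 2, the heart that was also lowest for Ccr2 and Cx3cr1, and 25.7 to 41.7 CPM in the other 5.

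Upstream sequence was looked at for the PU.1 core, GAGGAA on either strand, since PU.1 binds at many macrophage promoters. RefSeq promoter entries (GRCm38.p6) were matched for 6 of the 10 markers, and 2 of them, Cd68 and Mrc1, held the letters within 250 bases before the RefSeq start, as did 23.3% of 32851 promoter entries. The longer GAGGAAGT, also sought on either strand, was found in 0 of the 6 and in 2.44% of the entries. All 250 bases were searched for each of the 6, but for Cx3cr1 none of them, and for Ccr2 only 17, lie before the gene's first base in the GENCODE annotation. Cd68 and Mrc1 are shown because they carry matches, with the matches in capitals, and the Mrc1 stretch ends before the gene's first annotated exon base. Cd68 (chr11:69666171-69666420, minus strand) has 1 match on the sense strand and Mrc1 (chr2:14229164-14229391, plus strand) has 3 on the antisense strand, seen there as TTCCTC.
Cd68: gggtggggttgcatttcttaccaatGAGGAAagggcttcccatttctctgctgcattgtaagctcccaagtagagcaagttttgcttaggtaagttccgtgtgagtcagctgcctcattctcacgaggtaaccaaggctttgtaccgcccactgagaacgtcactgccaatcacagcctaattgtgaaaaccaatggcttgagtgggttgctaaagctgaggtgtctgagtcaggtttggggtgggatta
Mrc1: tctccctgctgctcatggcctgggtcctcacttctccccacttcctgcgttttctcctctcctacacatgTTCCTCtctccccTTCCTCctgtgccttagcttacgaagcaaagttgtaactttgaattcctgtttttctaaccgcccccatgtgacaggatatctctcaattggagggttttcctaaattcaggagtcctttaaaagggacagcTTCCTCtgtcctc
A match describes the letters only and is no evidence of binding.

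Markers of several other cell types were also highest in knockout replicate 1, and those of others were not. Epicardial and mesothelial markers were positive for 7 of 7 and summed to 37.0 CPM in that heart, against 5.72 and 20.4 CPM in the other knockouts and 7.10 to 13.5 CPM in wild type. Fibroblast markers, positive for 7 of 8, summed to 1759 CPM there, against 882 and 1675 CPM in the other knockouts and 1140 to 1569 CPM in wild type. Vascular endothelial markers, positive for 5 of 8, summed to 733 CPM there, against 351 and 560 CPM in the other knockouts and 365 to 640 CPM in wild type. General leukocyte markers, positive for 6 of 7, summed to 64.4 CPM there, against 36.7 and 41.7 CPM in the other knockouts and 32.7 to 42.8 CPM in wild type. Neutrophil markers differed in order, with 5.17 CPM in knockout replicate 2 and 0.655 CPM in knockout replicate 3 as the extremes (2.26 CPM in knockout replicate 1, 1.84 to 3.57 CPM in wild type), and 3 of 7 passed the filter. Mast cell markers were positive for 5 of 5 tested, with sums of 5, 4.53 and 3.64 CPM in wild type and 7.98, 3.24 and 6.68 CPM in knockout. Dendritic cell markers, positive for 3 of 4 tested, summed to 10.5 to 13.04 CPM in wild type and 11.1 to 14.5 CPM in knockout. Cell cycle genes were positive for 8 of 8, with sums of 49.2 to 62.2 CPM in wild type and 91.9, 68.7 and 81.6 CPM in knockout. The sums did not overlap between genotypes. Taken singly, 1 of the 8 genes did not overlap and was higher in knockout, against 2.18% of all tested genes. The median log2 fold change of the 8 was 1.42, with 2 of 8 at an unadjusted p under 0.05 in edgeR. It was 0.46 without knockout replicate 1. Heart muscle markers summed to 45330 CPM in knockout replicate 1 and reached their highest sum, 56790 CPM, in knockout replicate 3. Red blood cell markers were highest in knockout replicate 2 (800.4 CPM, against 764.5 CPM in knockout replicate 1), and T and NK cell markers in wild-type replicate 3 (3.19 CPM, against 2.54 CPM). None of these markers was called, and their part in the macrophage values was not tested.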

How the data were processed

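Per the labels' protocols, RNA of 6 hearts was purified on RNeasy columns and sequenced after NEBNext Ultra II library preparation. The authors deposited raw counts, whole numbers for each Ensembl gene. Per the submitters' processing notes, which assign no roles, the tools included Subread 1.5.2 with featureCounts, STAR and DESeq2, on GRCm38.p6. For annotation, strandedness and multi-mapping reads the settings were not given in the sources used here. Symbols matched 48970 of 49315 rows, and positions and exon lengths came from GENCODE release M21 (GRCm38). Totals were 29974501 to 41036626 counts, and intervals from so few hearts are wide: the median SE of a log2 fold change was 0.233. The closest libraries, wild-type replicate 3 and knockout replicate 2, still differed beyond counting noise (chi-square per degree of freedom 7.79).

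Genes were filtered with filterByExpr (minimum count 10, minimum total 15), scaled by TMM and tested by edgeR's quasi-likelihood method (edgeR 4.0.16, R 4.3.3). P-values were adjusted by Benjamini-Hochberg over all 14508 genes, with a threshold of 0.05. Log2 fold changes are the unshrunken coefficients of the edgeR fit, and SEs follow from the F statistic. The procedure was tested on simulated data. DESeq2 1.42.0, limma 3.58.1 (voom), other scalings and filters, left-out hearts, a replicate block and a term for Y-linked reads (over 5 CPM in 4 genes) were alternatives, and an offset for exon length (spline, 6 degrees of freedom) was added after the data were seen, as were the lists' values under each alternative. The markers and lists were chosen with earlier results of these data known. Named genes are Arrdc4, the 10 markers, the 2 genes with the smallest p of each macrophage list, Csf1, Il34, Ccl2, Cx3cl1, Prox1, and the 3 genes (mean log2 CPM of at least 1) most like Csf1r, Ccr2 and Lyve1. Spi1, Plac8, Ly6c2 and Ccl21a were named after their values were seen. Likeness is the mean absolute difference of log2 CPM (prior count 2), each gene centred on its mean.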

Additional observations from a re-analysis of the deposited data

How the results depend on the processing

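No marker and no gene of the macrophage lists passed the adjusted threshold under any alternative run, including DESeq2, limma-voom and each left-out heart. Across all genes the count called was 1, but 0 with a replicate block, 2 without wild-type replicate 3 and knockout replicate 2 together, and 0 to 1 when 1 heart was left out. Arrdc4 had an adjusted p of 0.0507 with the replicate block (log2 fold change -7.07) and 0.0519 without knockout replicate 3 (-6.81). At an unadjusted p under 0.05 the count over all genes was 179, with 447 for no filter, 108 for the 1 CPM filter, 981 without both hearts that stood apart, 72 with the replicate block, 539 with the Y-linked term, and 94 to 1126 with 1 heart left out. Among the markers that count was 1, but 0 in limma-voom and 0 to 1 with 1 heart left out. Among macrophage list genes it was 0, with 4 for no filter, 2 in DESeq2, 5 without both hearts that stood apart, 4 with the Y-linked term, 1 with the exon length offset, and 0 to 8 with 1 heart left out. With 1 heart left out, positive fold changes numbered 1 to 9 of 10 markers (5 when wild-type replicate 3 was left out, 1 when knockout replicate 1 was) and 16 to 56 list genes (16 without knockout replicate 1).

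Single genes changed sign when a heart was left out. Their ranges of log2 fold change were -0.34 to 0.52 for Csf1r, -0.25 to 0.78 for Cd68, -0.37 to 0.51 for Adgre1, -0.29 to 0.41 for C1qa, -0.24 to 0.54 for Cx3cr1, -0.25 to 0.33 for Lyve1, -0.34 to 0.47 for Cd163 and -0.28 to 0.74 for Mrc1. Outside the markers they were -0.056 to 0.55 for Igf1, -0.22 to 0.41 for Cbr2, -0.41 to 0.12 for H2-Aa, -0.15 to 0.39 for H2-DMb1, -0.014 to 0.51 for Il34, -0.068 to 0.51 for Cx3cl1 and -0.14 to 0.059 for Prox1. Cd163 was -0.0064 with DESeq2 size factors, -0.010 in DESeq2, -0.15 in limma-voom, -0.081 with the replicate block and -0.060 with the exon length offset. Timd4 was 0.025 without both hearts that stood apart, and Prox1 was 0.12 with the Y-linked term. The cause was not tested. Same-numbered hearts did not deviate together (correlations of 0.184, -0.649 and -0.399 over genes for numbers 1 to 3). The largest correlations were 0.684 for wild-type replicate 3 with knockout replicate 2 and 0.491 for wild-type replicate 2 with knockout replicate 1. With so few hearts and 2 of them standing apart, these values cannot show whether replicate numbers stand for a pairing, which is not given. Timd4 rested on 34 to 72 counts per library and Ccr2 on 40 to 242.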
